A study of Homo sapiens with 10 samples.

Results

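The genes described here are 10 members of the canonical Wnt pathway that hold or read out β-catenin. They were chosen by symbol, as all rows of the RNA-Seq table that carry the names CTNNB1, TCF7, TCF7L1, TCF7L2, LEF1, AXIN1, AXIN2, APC, GSK3B and CTNNBIP1, and all 10 were found among the 19590 genes of the table. RNA was sequenced from MV4-11, an established human AML cell line of monocytic type, in 4 Control libraries and 4 IRF8 KO libraries. Control cells were infected with a control vector, and the IRF8 KO cells carried a CRISPR/Cas9 knockout of the transcription factor gene IRF8. Both groups had therefore been infected and puromycin-selected, and both were kept in RPMI with serum. The knockout cells were clones grown after limiting dilution and made with different guides. Which clone gave which library is not stated in the sources used here. No cloning of the Control cells is described, so differences due to the knockout and to clonal origin cannot be told apart. Nothing in the labels says that the 4 replicates of a group were separate cultures, so p-values measure the spread between these libraries, which may be technical.

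In the absence of a Wnt signal, the scaffold proteins AXIN1 and AXIN2 and the tumour suppressor APC gather β-catenin (encoded by CTNNB1) with the kinase GSK3B, which phosphorylates β-catenin and marks it for degradation. When the pathway is active, β-catenin accumulates, enters the nucleus and binds the DNA-binding factors TCF7, TCF7L1, TCF7L2 and LEF1, and CTNNBIP1 (ICAT) is a small protein that blocks this binding. β-catenin is regulated largely as a protein, which RNA-Seq does not measure, while AXIN2 is a widely used transcript readout because it is itself a target gene of β-catenin and TCF. β-catenin activity has been linked to self-renewal of leukemic cells, and TCF7 and LEF1 are best known from T lymphocytes.

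The promoter windows that RefSeq gives for 9 of the members, from 250 bases before to 50 bases after each start site in GRCh38.p14, were searched for sequences bound by the factors in question, since IRF8 was the deleted factor and members of the pathway can be targets of TCF/LEF. AXIN2 had no window and was not searched. None of the 13 windows held the ETS-IRF composite element (GGAA, any 2 bases, GAAA) or the interferon-stimulated response element (GAAA, any 2 bases, GAAA) on either strand. These elements, which can overlap each other, occurred in 2.82% and 3.57% of all 35116 windows. At such low shares, 13 windows are too few for their absence to be informative. A TCF/LEF core (CTTTG and then A or T at each of the next 2 positions, either strand) occurred in 13.8% of all windows and in 2 windows of members, which are shown with the core in capitals and 10 flanking bases on each side. Both lie at internal start sites, the TCF7 window at chr5:134123368-134123667 and the TCF7L2 window at chr10:113126383-113126682, both on the plus strand, with the core beginning 50 and 133 bases before the start site.
TCF7 (core on the opposite strand): gccccactggAACAAAGgaggagagag
TCF7L2: aaatatcaggCTTTGTTcttttgattg
A match is a description of these letters and not a bound site, and a window without a match says nothing about more distant elements.

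Values are normalized counts, meaning read counts divided by a size factor of the library by the authors, and 1 read was worth between 0.804 and 1.35 normalized counts. Reads on genes numbered from 39560072 to 65519047 per library. IRF8 RNA was lower but present in the knockout libraries, at 25.1% of the control mean (29408 ± 12787 against 7375 ± 4339 normalized counts, SD, n = 4 each). Its log2 fold change was -2.11 ± 0.51 SE (limma adjusted p = 0.022), a call lost without Control replicate 1 or 3 or IRF8 KO replicate 1 (adjusted p at most 0.059). The RNA level does not measure IRF8 protein. The paper reports that the protein was absent from the knockout clones by Western blot. It also reports by ChIP-qPCR that IRF8 was no longer found at its target genes. Of the 12 myeloid leukemia markers examined, all were detected, and their summed level was between 102155 and 108211 in the Control and between 126333 and 361966 in the IRF8 KO libraries. Of these, 3 were called higher (ITGAM, MPO and CD68) and 1 lower (MEIS1) in the knockout libraries (limma adjusted p below 0.05). By the same rule, used for each marker list here, 18.2% of all tested genes were called. Much of the rise in the sum came from LYZ, which was not called (7961 ± 6735 against 83685 ± 110484, limma adjusted p = 0.060) and reached 248604 in 1 knockout library. Of 20 lymphoid markers, 6 passed the filter on low values, 1 of them higher and 1 lower, and 3 (CD8B, TRAT1 and MS4A1) were at 0 in every library. Their summed level overlapped between the groups (3698 to 5771 against 3915 to 7943). Of 8 epithelial and stromal markers, 4 passed the filter, 2 of them lower in the knockout libraries (KRT8 and KRT18), with sums of 1506 to 3815 against 82.1 to 632. The part of these differences in the results below was not tested.

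Differences in these genes between the IRF8 KO and Control libraries were tested with limma on log2(normalized count + 1), keeping genes whose 8 values averaged at least 10. A gene was called at a Benjamini-Hochberg adjusted p below 0.05 over all 13110 tested genes. Of the 10 members, 8 passed the filter. AXIN2 was called lower and none was called higher, so 1 of 8 was called, where 18.2% of all tested genes were called (9.56% lower and 8.65% higher). The remaining 7 were not called. edgeR's quasi-likelihood test also called AXIN2 alone among the members, while over all 13110 tested genes it called 1127 higher and 1206 lower. DESeq2 called AXIN2 and GSK3B, and over all tested genes it called 1679 higher and 1723 lower. The 4 Control and 4 IRF8 KO values did not overlap for AXIN2 and GSK3B, 2 of the 8, against 25.3% of all tested genes. The thresholds of the study, a 2-fold difference with an unadjusted p under 0.01, were passed by AXIN2 alone and by 10.9% of tested genes (6.12% lower and 4.78% higher). The members' share of calls was thus not above that of all genes.

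**Figure D1:**
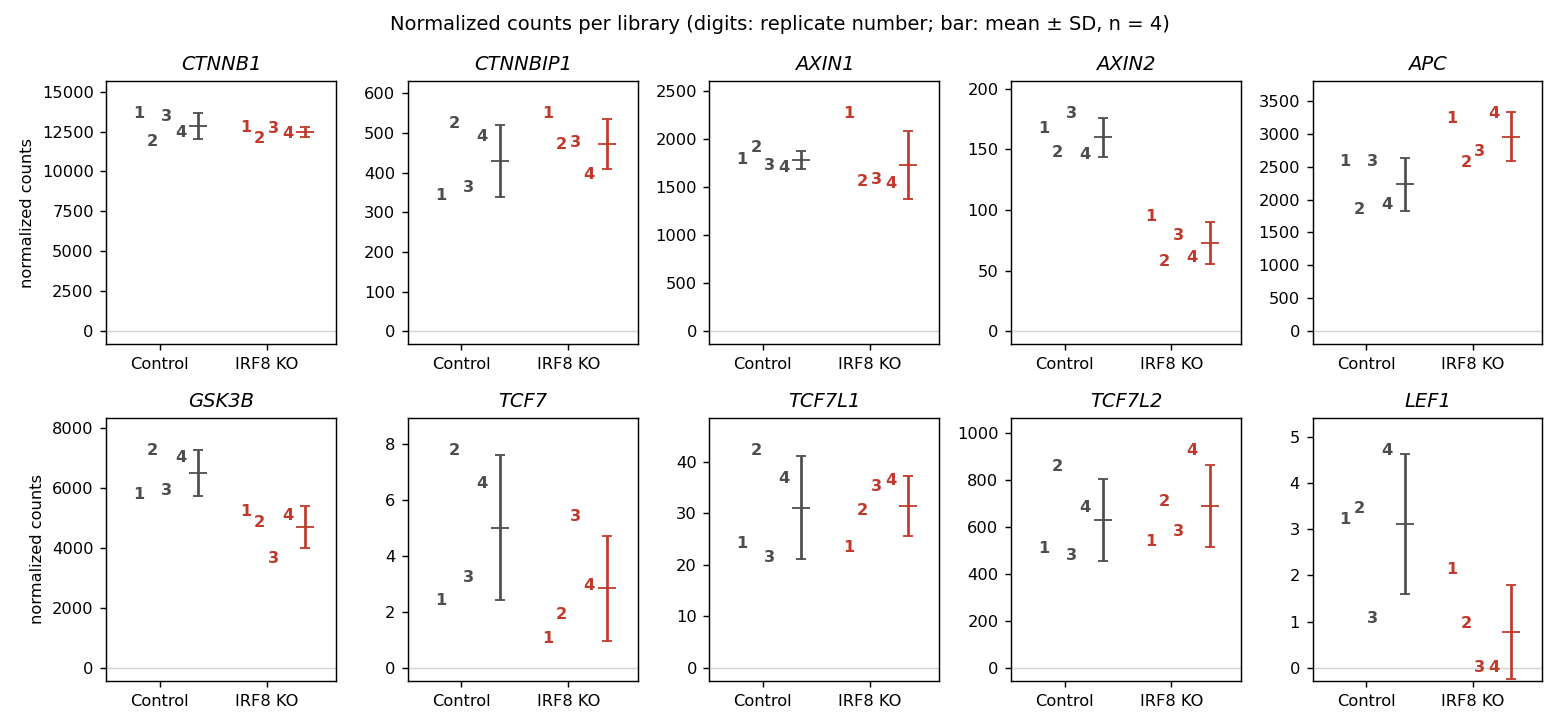
Normalized counts (y axis, linear, separate scale for each gene) of the 10 genes in the 4 Control (grey) and 4 IRF8 KO (red) libraries, with digits giving the replicate number and bars the mean ± SD (n = 4). AXIN2 and GSK3B are the tested genes whose groups do not overlap, CTNNB1 is level, and TCF7 and LEF1 stay below 8 normalized counts.

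AXIN2, the scaffold protein that is induced by β-catenin and restrains it, showed the clearest difference. Its Control libraries held 167.3, 147.5, 179.3 and 145.9 normalized counts in replicates 1 to 4, and its IRF8 KO libraries held 94.8, 57.3, 78.5 and 61.0. Every knockout library lay below every control library, and the mean fell from 160.0 ± 16.1 to 72.9 ± 17.3 (SD, n = 4 each), 45.6% of the control level. In limma this was a log2 fold change of -1.15 ± 0.23 (standard error) with an adjusted p of 0.0088 and a 95% interval of -1.66 to -0.63. Permuting the library labels (exact, two-sided) gave p = 0.029, the smallest that 4 against 4 allow. The call rested on between 155 and 208 reads per Control library and between 58 and 89 reads per IRF8 KO library. It was kept with each library left out in turn and was lost with quantile normalization (log2 fold change -0.98, limma adjusted p = 0.055). In bulk RNA, fewer cells that express a gene and less RNA per cell cannot be told apart.

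Its paralog AXIN1, the constitutive scaffold of the destruction complex, had 1787, 1910, 1720 and 1705 normalized counts in the Control and 2266, 1558, 1580 and 1535 in the IRF8 KO libraries. In knockout replicate 1 it stood above all other libraries, and in the other 3 it was below all of the Control libraries. In limma the difference was -0.06 ± 0.15 on the log2 scale (standard error, adjusted p = 0.85), with a 95% interval of -0.39 to 0.28. The log2 distance of AXIN2 from AXIN1 in the same library was between -3.69 and -3.25 in the Control and between -4.74 and -4.31 in the IRF8 KO libraries. The ranges did not overlap, and the mean distance differed by -1.09 (exact permutation test, two-sided, p = 0.029, and 0.086 after Benjamini-Hochberg adjustment over the 3 paralog pairs compared). With 4 libraries a group, a lone difference among 3 pairs cannot reach an adjusted p below 0.086.

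GSK3B, the kinase that phosphorylates β-catenin in the destruction complex, was lower in the IRF8 KO libraries by a smaller amount. It had 5770, 7258, 5912 and 7033 normalized counts in Control replicates 1 to 4 and 5214, 4859, 3656 and 5074 in IRF8 KO replicates 1 to 4. All knockout values lay below all control values, but the lowest Control and the highest IRF8 KO library, both replicate 1, were close. The mean was 6493 ± 761 in the Control and 4701 ± 712 in the knockout (SD, n = 4 each), 72.4% of the control level. In limma the difference was -0.47 ± 0.15 on the log2 scale (standard error), with a 95% interval of -0.81 to -0.13. Its adjusted p of 0.059 was just outside the threshold, and the exact permutation test gave p = 0.029. Over all tested genes, and not for GSK3B in particular, same-numbered libraries deviated together. They did so about as much as libraries of different number within replicates 1 and 3 or within 2 and 4. Blocking on the replicate number narrowed the standard error to 0.12 and moved the limma adjusted p to 0.024. DESeq2 on the recovered reads gave 0.021. With each library left out in turn the adjusted p was between 0.073 and 0.14.

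GSK3A, the closest relative of GSK3B and able to replace it in this pathway, differed by -0.07 on the log2 scale (limma adjusted p = 0.69). The log2 distance between the paralogs was 0.41 to 0.87 in the Control and -0.22 to 0.49 in the IRF8 KO libraries. These ranges overlapped, and the difference of -0.40 did not exceed the spread between libraries (exact permutation test, p = 0.14).

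APC, the large scaffold whose loss stabilises β-catenin in colon cancer, tended the other way. Its Control libraries held 2581, 1846, 2571 and 1919 normalized counts and its IRF8 KO libraries 3230, 2565, 2729 and 3304. Knockout replicate 2 lay just below Control replicates 1 and 3, so the groups overlapped. The means were 2229 ± 401 and 2957 ± 365 (SD, n = 4 each), and limma gave a log2 fold change of 0.42 ± 0.16 (standard error) with an adjusted p of 0.11 (exact permutation test, p = 0.086). Each knockout library was above the Control library of the same number, and with the replicate block the limma adjusted p was 0.054, again not past the threshold. APC maps to chromosome 5, where the median over 578 tested genes was a log2 fold change of 0.21, the furthest from 0 among the chromosomes of the members. The log2 fold change of APC was 0.20 above that median, and the part of the chromosome-wide shift in it was not tested. The distance of APC from its paralog APC2 differed by 0.02 between the groups (exact permutation test, p = 0.91).

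CTNNB1 itself was level between the groups. Its Control libraries held 13620, 11902, 13428 and 12413 normalized counts and its IRF8 KO libraries 12775, 12047, 12716 and 12376. All 4 knockout values fell inside the range of the Control values. The difference was -0.04 ± 0.096 on the log2 scale (standard error, limma adjusted p = 0.84), and its 95% interval of -0.26 to 0.18 was the narrowest among the members.

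CTNNBIP1, which keeps β-catenin from TCF/LEF factors, had 342, 524, 363 and 492 normalized counts in the Control and 549, 472, 477 and 394 in the IRF8 KO libraries. The groups overlapped, with a log2 difference of 0.15 ± 0.19 (standard error, limma adjusted p = 0.66) and a 95% interval of -0.29 to 0.59. Knockout replicates 1 and 3 were above and replicates 2 and 4 below the Control libraries of the same number.

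**Figure D2:**
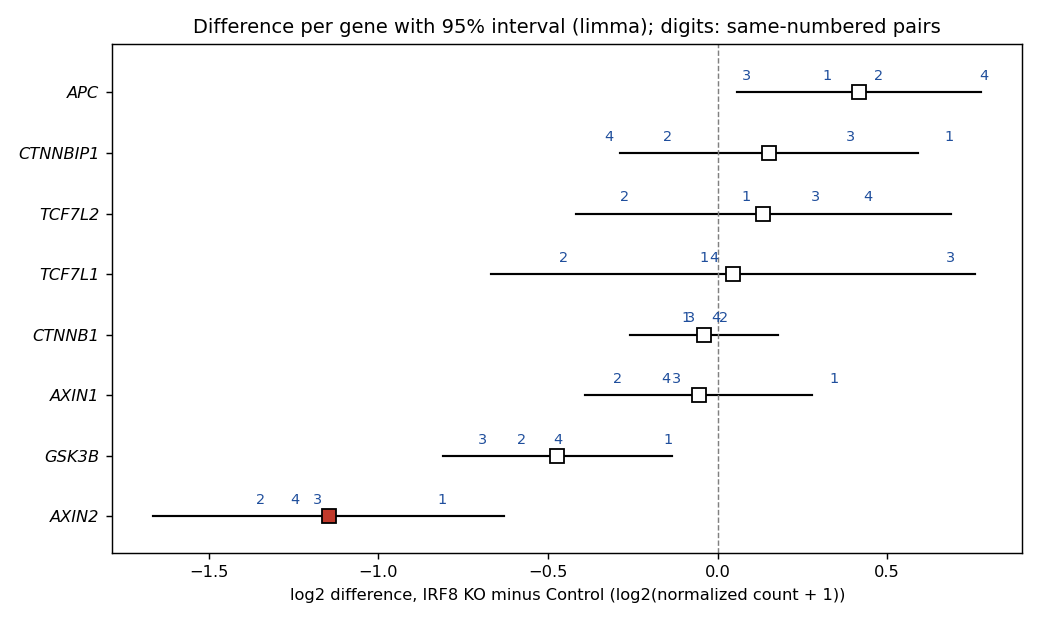
Difference between IRF8 KO and Control on the log2(normalized count + 1) scale (x axis) for the 8 tested genes, with squares for the limma estimate, lines for its 95% interval and digits for the 4 same-numbered pairs of libraries. The filled square marks AXIN2 (adjusted p = 0.0088), and AXIN2, GSK3B and APC are the tested genes whose 4 pairs all lie on the same side of 0.

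Among the DNA-binding factors, TCF7L2, which is widely expressed outside the lymphoid lineage, had 508, 856, 476 and 680 normalized counts in the Control and 538, 707, 581 and 925 in the IRF8 KO libraries. The groups overlapped over most of their range, and the log2 difference was 0.14 ± 0.24 (SE, limma adjusted p = 0.77), its 95% interval being -0.42 to 0.69. TCF7L1, mostly a repressor of target genes in the absence of β-catenin, was low, with 20 to 49 reads per library. Its values were 24.1, 42.3, 21.5 and 36.7 normalized counts in the Control and 23.4, 30.6, 35.2 and 36.4 in the IRF8 KO libraries. The log2 difference was 0.05 ± 0.32 (standard error, limma adjusted p = 0.94), its sign changed between settings, and its interval of -0.67 to 0.76 leaves differences of either sign possible at this depth.

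TCF7 and LEF1, the factors of T lymphocytes, were nearly absent from MV4-11 cells and did not pass the filter. TCF7 had 2.41, 7.76, 3.22 and 6.59 normalized counts in the Control and 1.07, 1.91, 5.42 and 2.95 in the IRF8 KO libraries, from 1 to 9 reads per library. The groups overlapped and no difference was detectable at this depth (exact permutation test, p = 0.17). LEF1 had 3.22, 3.45, 1.07 and 4.71 normalized counts in the Control libraries, from 4, 4, 1 and 5 reads. In IRF8 KO replicates 1 and 2 it had 2 reads and 1 read, and in replicates 3 and 4 none. Each knockout library was below the Control library of the same number, but the groups overlapped and a count of 0 allows up to 3 reads. The difference did not pass the exact permutation test (p = 0.057), nor limma without the filter (log2 fold change -1.30, unadjusted p = 0.024, adjusted p = 0.11). The genes of the CD3 chains that associate with the T cell receptor, CD3D, CD3E and CD3G, were likewise at or near 0, never above 2.59 normalized counts. Other genes of the lymphoid list were expressed, among them IL7R and NKG7, and the T cell factor BCL11B was called higher in the knockout libraries (13.0 ± 10.6 against 96.0 ± 82.8, limma adjusted p = 0.029). Their part in the values of TCF7 and LEF1 was not tested. TCF7L2 and TCF7L1 were thus the factors of the family that passed the filter.

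The Control libraries were themselves split by replicate number. In 9 of the 10 members replicates 1 and 3 lay together on one side of replicates 2 and 4. They were lower in 6 (TCF7, TCF7L1, TCF7L2, LEF1, GSK3B and CTNNBIP1) and higher in 3 (CTNNB1, AXIN2 and APC). TCF7 and LEF1 are counted here although they did not pass the filter, and LEF1 had 4 reads in both Control replicates 1 and 2. Among all tested genes 81.2% showed such a split in the Control libraries, and 49.4% in the IRF8 KO libraries, where it was seen in 5 of the 10 members. What replicates 1 and 3 share is not stated in the sources used here. For AXIN2, the log2 difference between knockout and control was -0.81 and -1.18 within replicates 1 and 3 and -1.35 and -1.25 within replicates 2 and 4. The mean differences within replicates 1 and 3 were -0.42 for GSK3B and 0.20 for APC, and within replicates 2 and 4 they were -0.52 and 0.63. The sign was thus the same in both sets of replicates for these 3 genes. It was also the same for TCF7L2 (0.19 and 0.084), which was not called. So it was for TCF7 (-0.060 and -1.27) and LEF1 (-0.74 and -1.85), which did not pass the filter. The sign differed for CTNNBIP1 (0.54 and -0.23), AXIN1 (0.11 and -0.22), TCF7L1 (0.32 and -0.23) and CTNNB1 (-0.086 and 0.0066). The share of all tested genes that kept their sign was not computed.

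Genes with the most similar profile were sought among 10985 other genes that averaged at least 100 normalized counts, by the largest distance in any of the 8 libraries between log2 levels centred on their own mean. For AXIN2 the nearest were TMEM230 (within 0.20), CEP250 (0.22) and RTF2 (0.25). All 3 lie on chromosome 20, whose genes as a whole were lower in the knockout libraries (median log2 fold change -0.92), whereas AXIN2 lies on chromosome 17 (median 0.01). For GSK3B the nearest were ICK (within 0.08), GNA13 (0.10) and DOCK10 (0.10), with log2 fold changes of -0.49, -0.47 and -0.46.

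The other genes of the pathway were examined in 5 lists. Over all tested genes, 18.2% were called, 1134 higher and 1253 lower, and the median log2 fold change was -0.00094. The list whose median was furthest from this was that of the Dishevelled relay and its regulators, which carries the signal from the receptor to the destruction complex. Of 14 genes, 12 were tested, 5 were lower and 1 higher, with a median log2 fold change of -0.53. NKD1, which like AXIN2 is a feedback inhibitor induced by the pathway, fell from 517 ± 97.9 to 172 ± 86.6 normalized counts (log2 fold change -1.71 ± 0.36 SE, limma adjusted p = 0.012). DACT3, an antagonist of Dishevelled, fell from 1071 ± 434 to 256 ± 157 (log2 fold change -2.19, limma adjusted p = 0.0095). CDK14, a kinase that primes the Wnt co-receptor LRP6, rose from 238 ± 22.3 to 1361 ± 548 (log2 fold change 2.38, limma adjusted p = 0.0022, SD with n = 4 for these genes). For all 3 the groups did not overlap, as for 25.3% of all tested genes, and the calls were kept in all 20 alternative settings. These 3 were named because they had the largest changes among the called genes of the list. Their separation and kept calls are therefore not independent support.

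**Figure D3:**
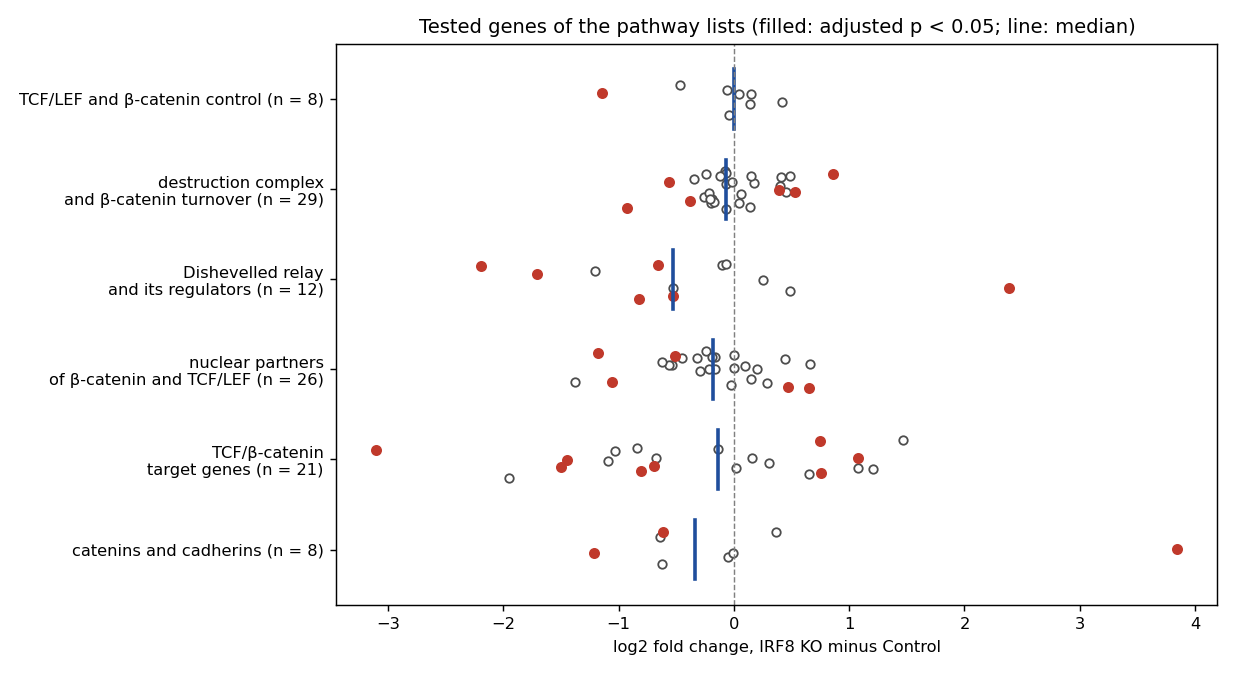
Log2 fold change, IRF8 KO minus Control (x axis), of the tested genes in each pathway list (rows), with filled points for genes at an adjusted p below 0.05 and a line for the median of the list. The 8 tested TCF/LEF and β-catenin control genes centre on 0 with AXIN2 as the filled point, and the Dishevelled list has 5 filled points below and 1 above 0.

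In the list of further destruction complex and turnover genes, all 29 were tested, 3 were higher and 3 lower, and the median was -0.07. The share called over all tested genes was 18.2%. The scaffold AMER1, which binds APC, fell from 1228 ± 345 to 627 ± 58.5 normalized counts (log2 fold change -0.93, limma adjusted p = 0.016). BTRC, the F-box protein that recognises phosphorylated β-catenin, fell from 779 ± 97.8 to 525 ± 29.1 (log2 fold change -0.56, limma adjusted p = 0.023). CUL1, a cullin of the ubiquitin ligase of BTRC and of many others, rose from 3472 ± 571 to 6250 ± 346 (log2 fold change 0.86, limma adjusted p = 0.0038). Between 2 and 4 genes of this list were called with a library left out. In those fits 759 to 1165 of all tested genes were called higher and 906 to 1294 lower, in place of 1134 and 1253. The call of BTRC was lost without Control replicate 2, Control replicate 4 or IRF8 KO replicate 4 (adjusted p at most 0.068).

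Of 29 nuclear partners of β-catenin and TCF/LEF, 26 were tested, 2 were higher and 3 lower (median -0.18), where 18.2% of all tested genes were called. With the replicate block 10 were called, 3 higher and 7 lower. Calls over all tested genes rose as well, to 1857 higher and 1912 lower in place of 1134 and 1253. TLE3 and TLE4 are Groucho co-repressors, which hold TCF/LEF targets silent. TLE3 fell from 5580 ± 1562 to 2435 ± 530 normalized counts (log2 fold change -1.18, limma adjusted p = 0.0070) and TLE4 rose from 2908 ± 323 to 4573 ± 579 (log2 fold change 0.65, limma adjusted p = 0.011). TBL1XR1, which joins β-catenin at target genes, fell from 12560 ± 1042 to 8795 ± 620 (log2 fold change -0.51, limma adjusted p = 0.012). With a library left out, between 3 and 5 genes of the list were called, 3 without any of Control replicates 1, 3 and 4 or of IRF8 KO replicates 1, 3 and 4.

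Of 35 genes known as targets of TCF and β-catenin in other tissues, 21 were tested and 5 (MMP7, DKK1, SOX9, MET and EDN1) were at 0 in every library. Of those tested, 3 were higher and 5 lower, with a median of -0.14, where 18.2% of all tested genes were called. The 3 higher were JUN (log2 fold change 1.07, limma adjusted p = 0.042), MITF (0.76, limma adjusted p = 0.011) and CDX2 (0.74, limma adjusted p = 0.031). MYC was not called (log2 fold change 0.16, limma adjusted p = 0.40). EPHB3, an ephrin receptor, fell from 3365 ± 324 to 545 ± 386 normalized counts (log2 fold change -3.10, limma adjusted p = 0.014). The nuclear receptor gene PPARD fell from 7715 ± 2030 to 2997 ± 1591 (log2 fold change -1.50, limma adjusted p = 0.029), a call lost without Control replicate 2 or 4 or IRF8 KO replicate 1 or 3 (adjusted p at most 0.080). PLAUR, the urokinase receptor, fell from 4228 ± 661 to 1566 ± 324 (log2 fold change -1.44, limma adjusted p = 0.0010). With libraries left out, between 5 and 11 genes of the list were called, between 1 and 5 of them higher.

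β-catenin also links cadherins to the cytoskeleton. Of 15 catenin and cadherin genes 8 were tested, 1 was higher and 2 lower, with a median of -0.34, where 18.2% of all tested genes were called. The classical cadherins CDH1, CDH2, CDH3 and CDH5 did not pass the filter. CTNNA1, α-catenin, which binds β-catenin, fell from 11886 ± 765 to 7744 ± 353 normalized counts (log2 fold change -0.62, limma adjusted p = 0.0035). The junction scaffold AFDN fell from 4434 ± 468 to 1962 ± 554 (log2 fold change -1.21, limma adjusted p = 0.0037). JUP, γ-catenin, the closest relative of β-catenin, was between 3.22 and 25.4 normalized counts in the Control and between 22.4 and 484 in the IRF8 KO libraries. It was called higher (log2 fold change 3.85 ± 0.96 SE, limma adjusted p = 0.025), although the lowest knockout library was within the Control range. This call was lost when Control replicate 1 or 3 or IRF8 KO replicate 2, 3 or 4 was left out (adjusted p at most 0.072).

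**Figure D4:**
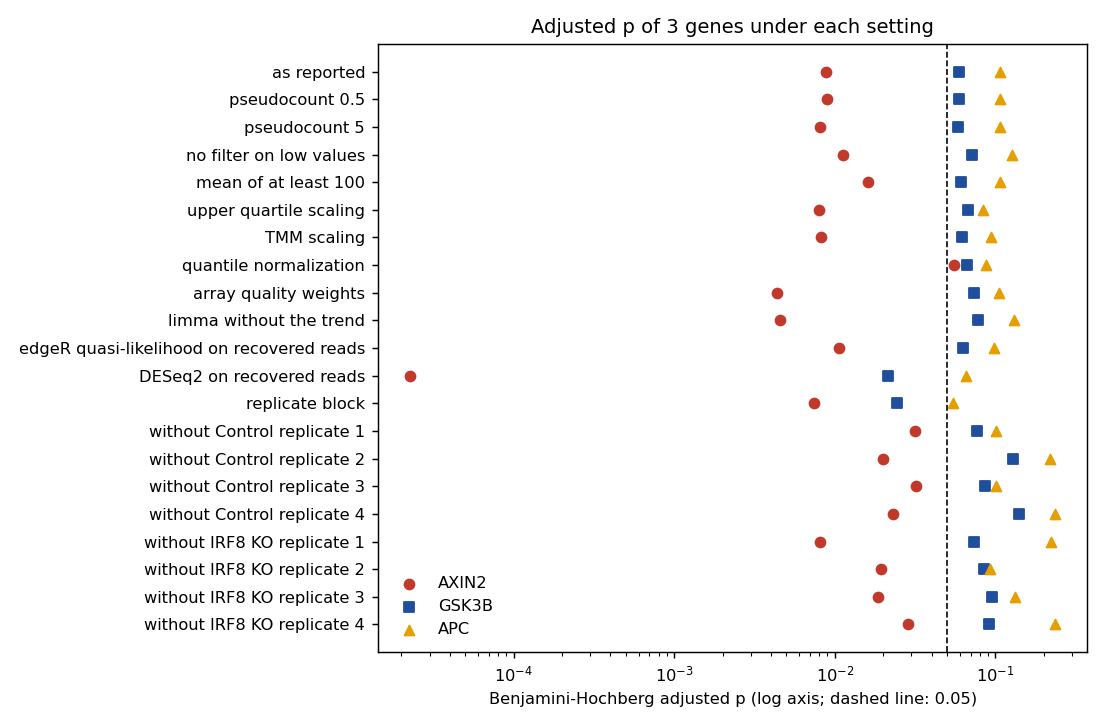
Benjamini-Hochberg adjusted p (x axis, log scale) of AXIN2 (circles), GSK3B (squares) and APC (triangles) as reported and under 20 alternative settings (rows), with a dashed line at 0.05. AXIN2 crosses the line only with quantile normalization (0.055), GSK3B is past it only with DESeq2 (0.021) and the replicate block (0.024), and APC under none of the settings shown.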

How the data were processed

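RNA-Seq libraries of 4 Control and 4 IRF8 KO MV4-11 replicates were used, and the ChIP-Seq samples were not analysed here. Per the methods, the authors aligned reads with RNA-Star to GENCODE, counted them per gene with featureCounts (strand setting not given in the sources used here) and normalized them with DESeq2. The deposited values are a signal per gene, read counts divided by the library's size factor, and 100% were whole reads within 0.01 once divided by the value of 1 read. The deposited table of the authors' comparison (fold changes and p-values) was not used. Control columns are named wild type with a replicate number and were matched to the Control replicate of that number, with 0 columns left out.

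For the tests, log2(normalized count + 1) of genes averaging at least 10 was fitted in limma 3.58.1 (R 4.3.3), using a trended and robust variance. The 95% intervals are from the same fit and rest on the spread between libraries. edgeR 4.0.16 and DESeq2 1.42.0 on recovered reads, pseudocounts, filters, scalings, weights, the replicate block and leaving out each library were alternatives. The fit was tested on simulated data. Same-numbered libraries deviated together (correlation of deviations from the group means 0.37, 0.48, 0.45 and 0.50). The replicate number was therefore used as a block in an alternative fit. The main fit, and every call not marked as blocked, was unpaired. Nothing in the labels says what a number marks, and libraries of different numbers within replicates 1 and 3 or within 2 and 4 correlated about as much (0.40 to 0.47), so the pairing cannot be told apart from these sets. Floors for a count of 0 cover counting error only. Named genes were the members, IRF8, up to 3 called genes with the largest change and a mean of at least 100 per list, and the 3 genes nearest to each of the 2 members that changed most. GSK3A, APC2, the cadherins, JUN, MITF, CDX2, SOX4, FOSL1, MYC, CCND1 and single markers were named after their values were seen. Members and lists were chosen with earlier results of these data known. Levels were not compared between genes, nor shares of the TCF/LEF factors computed as planned, because no transcript lengths were used here. Chromosomes and promoter sequences were taken by symbol from RefSeq (GRCh38.p14), which gave a chromosome for 12671 of the 13110 tested genes and a promoter for all members but AXIN2.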

Additional observations from a re-analysis of the deposited data

Results flagged for a closer look

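Of 64 groups of 4 libraries examined by Dixon's test, 2 had a library far from the other 3, where chance gives about 1 in 20. AXIN1 in IRF8 KO replicate 1 had 2266 normalized counts, while the other 3 knockout libraries lay between 1535 and 1580. AFDN in Control replicate 2 had 3737 normalized counts, below the other 3 Control libraries, which lay between 4613 and 4743.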

How the results depend on the processing

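The fall of AXIN2 kept its direction under all 20 alternatives and its call under 19. With quantile normalization the number of members called lower, and of members past the thresholds of the study, was 0 in place of 1 (AXIN2 adjusted p = 0.055). With DESeq2 and with the replicate block the members called lower were 2, the second being GSK3B. No member was called higher under any of the 20 alternatives. With each library left out in turn, members called lower and members past the thresholds of the study were 1 in each case, and the log2 fold change of AXIN2 lay between -1.28 and -1.04.

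The sign of TCF7L1 was not stable, with log2 fold changes of -5.27e-05 with edgeR and between -0.11 and 0.21 with libraries left out, and that of TCF7L2 turned to -0.018 without IRF8 KO replicate 4 (range -0.018 to 0.30). Called genes in the destruction complex list were 3 in place of 6 without a filter or without the variance trend, and 2 to 4 with libraries left out. Nuclear partners called were 9 with DESeq2 and 10 with the replicate block in place of 5, and 3 to 5 with libraries left out. With libraries left out, 3 to 6 Dishevelled genes, 5 to 11 target genes and 2 to 5 catenin and cadherin genes were called. The causes of these shifts were not tested. Calls over all tested genes shifted too, with 1679 higher and 1723 lower under DESeq2. With libraries left out they were 759 to 1165 higher and 906 to 1294 lower. Over all tested genes the replicate block called 1857 higher and 1912 lower, in place of 1134 and 1253, and it changed the call of no member other than GSK3B. TCF7L1 has no value with the filter at a mean of 100. TCF7 rested on 1 to 9 reads per library and LEF1 on 0 to 5, which limits both comparisons.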
